A study of Saccharomyces cerevisiae with 4 samples.

Results

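The 10 genes described here act in the synthesis of the branched-chain amino acids leucine, isoleucine and valine in the yeast Saccharomyces cerevisiae. They were chosen by name from 5449 yeast genes with a named probeset, and comprised ILV2, ILV5, ILV6, BAT1, BAT2, LEU1, LEU4, LEU9, the carrier gene OAC1 and the regulator gene LEU3. All 10 had a probeset, 1 each, and lay far above background on every array, at log2 values between 9.24 and 12.60. Cells of strain BY4741 growing exponentially in YPD, a rich glucose medium, were exposed for 1 h to CG-1521 at 50 μM, a histone deacetylase inhibitor, or to its vehicle. Each group had 2 cultures from independent biological replicates and 1 Affymetrix array per culture, so the number of arrays limits the precision.

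BY4741 is a haploid laboratory strain with a-cell identity whose LEU2, HIS3, MET17 and URA3 genes are deleted in whole or in part, and this holds in both groups. The leucine branch is therefore interrupted after the LEU1 step in all 4 cultures, and the cells take their leucine from the medium. MET17 and URA3 were below background on all 4 arrays, as was LEU2 on both control arrays. HIS3, of which the strain's allele keeps a part, had signal above background on 4 of 4 arrays. All 5 genes of a-cell identity tested, MFA1, MFA2, STE2, STE6 and BAR1, stood between 10.81 and 12.26. The 4 alpha-cell genes tested, MF(ALPHA)1, MF(ALPHA)2, STE3 and SAG1, also had signal above background, between 2.73 and 9.59. A single strain, 1 dose and 1 time point were measured, and in RNA of a whole culture a lower level in all cells and a loss in some cells cannot be told apart.

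Valine and leucine share a route in the mitochondrion: acetolactate synthase joins pyruvate units, a reductoisomerase and an iron-sulfur dehydratase carry the product on, and transaminases finish valine. Isoleucine uses the same enzymes, with a start from threonine. For leucine, isopropylmalate synthase makes alpha-isopropylmalate, which is exported to the cytosol and isomerised by an iron-sulfur enzyme before the LEU2 step. Alpha-isopropylmalate is also the signal that turns the DNA-bound Leu3 protein from a repressor into an activator of much of the pathway, and Gcn4 activates many amino acid genes in parallel.

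Transcripts of most of these genes were lower with CG-1521. Of the 10 genes, 7 fell (LEU1, LEU9, BAT1, OAC1, ILV2, ILV5 and LEU3), 0 rose, and LEU4, ILV6 and BAT2 did not pass. Among all 5449 genes tested, 29.7% were called, 16.8% lower and 12.9% higher, at a limma adjusted p under 0.05 after Benjamini-Hochberg adjustment over all of them. The median log2 fold change was -0.70 over the 10 genes and -0.04 over all genes. Both CG-1521 values lay below both control values for 9 of the 10 genes, a pattern found in 40.9% of all genes, and above them for BAT2, a pattern found in 31.4%. Only LEU1 of the 7 kept its call when either control array was left out.

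**Figure D1:**
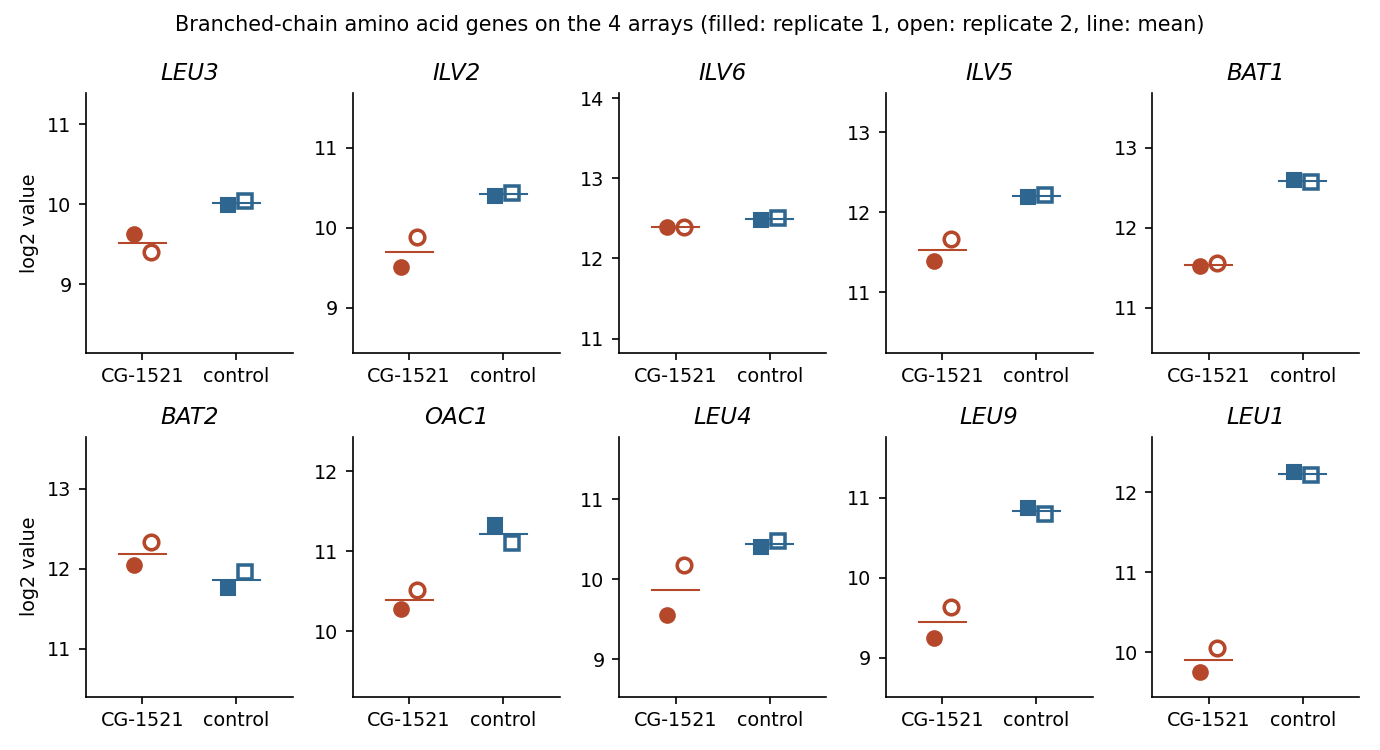
Log2 value (vertical axis, of the same height in every panel) of each gene on the CG-1521 arrays (circles) and the control arrays (squares), with replicate 1 filled, replicate 2 open and the group mean as a line. CG-1521 arrays lie lowest relative to control for LEU1, at 9.75 and 10.06 against 12.25 and 12.22, and lie above control for BAT2 alone.

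LEU3 encodes the zinc-cluster transcription factor that responds to alpha-isopropylmalate. Its log2 values were 9.63 and 9.41 in CG-1521 cultures, against 9.99 and 10.04 in control cultures. The groups did not overlap, and both control values lay within 0.05 of each other. LEU3 fell by 0.49 on the log2 scale (SE 0.12, limma adjusted p = 0.0412), the smallest fall among the 7 called genes. The call ended without CG-1521 replicate 2, where the log2 fold change was -0.38 (limma adjusted p = 0.0554). In a fit without 1 array of a group, the lone array is assumed to vary like the pair in the other group.

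The mitochondrial steps shared by all 3 amino acids were lower, apart from a regulatory subunit. ILV2 encodes the catalytic subunit of acetolactate synthase and stood at 9.51 and 9.89 in CG-1521 cultures, against 10.40 and 10.44 in control cultures. CG-1521 replicate 1 was the lowest array, and the groups did not overlap. ILV2 fell by 0.72 (SE 0.16, limma adjusted p = 0.0317), or 1.65-fold. ILV6, the regulatory subunit through which valine inhibits that enzyme, had log2 values of 12.40 and 12.39 with CG-1521 and 12.48 and 12.51 in control. The CG-1521 values lay just below the control values, and the log2 fold change of -0.10 did not pass (95% interval -0.35 to 0.15, limma adjusted p = 0.445).

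ILV5 encodes the reductoisomerase that acts next, a protein also known for a role in keeping mitochondrial DNA. Its log2 values were 11.39 and 11.67 in CG-1521 cultures, against 12.19 and 12.22 in control cultures. Every CG-1521 value was below every control value, and ILV5 fell by 0.67 (SE 0.13, limma adjusted p = 0.0260). The dehydratase gene ILV3, whose enzyme carries an iron-sulfur cluster, is outside the 10 genes and stood at 10.80 and 11.04 with CG-1521, against 11.61 and 11.76 in control. It fell by 0.76 (SE 0.13, limma adjusted p = 0.0207). ILV1, the threonine deaminase that feeds isoleucine, stood at 10.54 and 10.98 with CG-1521, against 11.56 and 11.24 in control. Its log2 fold change of -0.64 did not pass in the fit to all 4 arrays without an intensity trend (limma adjusted p = 0.0729), and passed with one (limma adjusted p = 0.0300). It was -0.42 without CG-1521 replicate 1 (limma adjusted p = 0.148) and -0.86 without CG-1521 replicate 2 (limma adjusted p = 0.0284). MMF1, a mitochondrial protein needed for isoleucine synthesis, did not pass (0.14, limma adjusted p = 0.314).

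The genes of both transaminases that finish all 3 amino acids had log2 fold changes of opposite sign, and the mitochondrial one passed. BAT1, the mitochondrial transaminase, had log2 values of 11.52 and 11.56 in CG-1521 cultures, against 12.60 and 12.57 in control cultures. Replicates agreed within 0.04 in both groups, the closest agreement among the 7 called genes. BAT1 fell by 1.05 (SE 0.10, limma adjusted p = 0.00778), or 2.06-fold. BAT2, the cytosolic paralog, which also serves the breakdown of branched-chain amino acids, stood at 12.05 and 12.33 with CG-1521, against 11.76 and 11.96 in control. It was the single member of the set with a positive log2 fold change, 0.33, and it did not pass (95% interval -0.06 to 0.72, limma adjusted p = 0.158). The values of BAT2 did not overlap between groups, but its replicates differed by 0.29 with CG-1521 and 0.20 in control.

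The leucine branch held the 2 largest differences, those of LEU1 and LEU9. LEU4 and LEU9 encode paralogous isopropylmalate synthases, which commit carbon to leucine, and LEU4 carries the main activity. LEU9 stood at 9.24 and 9.64 in CG-1521 cultures, against 10.87 and 10.80 in control cultures. All CG-1521 values lay over 1 log2 unit below control, and LEU9 fell by 1.39 (SE 0.16, limma adjusted p = 0.0102), or 2.63-fold. LEU4 stood at 9.56 and 10.18 with CG-1521, against 10.41 and 10.48 in control. Its CG-1521 arrays differed by 0.62, the widest gap between replicates among the 10 genes. Its log2 fold change of -0.57 did not pass (95% interval -1.17 to 0.02, limma adjusted p = 0.119). The value turned on which CG-1521 array was kept: it was -0.26 without replicate 1 and -0.89 without replicate 2. In these fits the gene's own spread came from the control arrays alone and was then drawn towards that of all genes.

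OAC1 encodes a carrier of the mitochondrial inner membrane that moves oxaloacetate and exports alpha-isopropylmalate. Its log2 values were 10.28 and 10.52 with CG-1521, against 11.34 and 11.10 in control. Replicates differed by 0.24 and 0.23, less than the distance between the groups, and OAC1 fell by 0.82 (SE 0.14, limma adjusted p = 0.0210).

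LEU1, the cytosolic isopropylmalate isomerase with an iron-sulfur cluster, stood at 9.75 and 10.06 in CG-1521 cultures, against 12.25 and 12.22 in control cultures. Both CG-1521 arrays were over 2 log2 units below control, and the control arrays differed by 0.03. The difference was -2.33 (SE 0.14, 95% interval -2.69 to -1.97), which made LEU1 transcripts 5.03-fold lower and placed the gene at rank 1 of 5449 from the bottom. Its limma adjusted p was at most 0.0477 over the 10 alternative settings. LEU2, which would act next, is deleted, and its probeset is described among the additional observations.

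**Figure D2:**
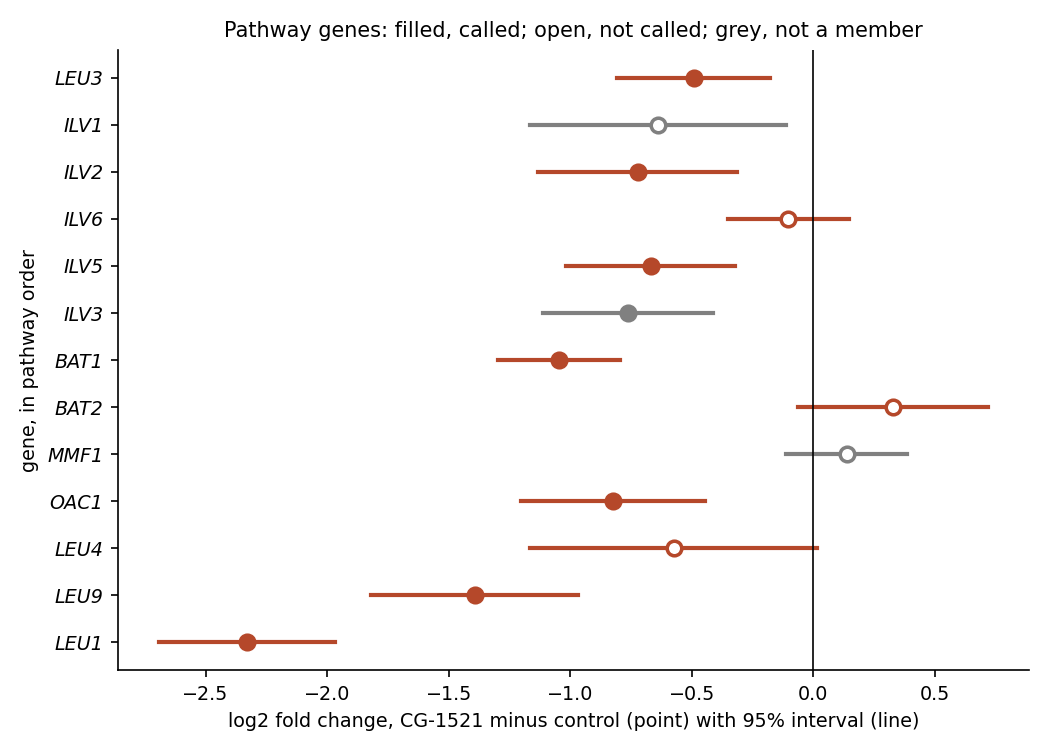
Log2 fold change, CG-1521 minus control (points), with its 95% interval (lines), for the 10 genes (red) and 3 other pathway genes (grey), regulator first and then in pathway order. Filled points passed at a limma adjusted p under 0.05. The intervals of LEU1 (-2.69 to -1.97), LEU9 and BAT1 lie farthest below 0, and those of BAT2, ILV6, MMF1 and LEU4 include 0.

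Within pairs of members the measured changes were unequal on these arrays. The log2 difference between 2 probesets on the same array was set against its mean on the control arrays, and 4 pairs were compared. BAT1 minus BAT2 was lower with CG-1521 by 1.25 on replicate 1 and 1.50 on replicate 2, while the control arrays lay 0.12 to either side of their mean. LEU4 minus LEU9 was higher by 0.71 and 0.93, against 0.07 to either side in control. ILV2 minus ILV6 moved by -0.81 and -0.43 with CG-1521, and the control arrays lay within 0.0038 of their mean. LEU1 minus LEU4 moved by -1.60 and -1.91, against 0.05 to either side in control.

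In all 4 pairs the CG-1521 and control arrays did not overlap. For BAT1 minus BAT2 this was fixed by the single genes, since BAT1 lay below and BAT2 above control on both CG-1521 arrays. Of all single genes, 40.9% had both CG-1521 values below control and 31.4% had both above. These shares are for single genes and give no baseline for pairs. The share over all possible pairs was not computed. The mean shift was -1.37 for BAT1 minus BAT2 (SE 0.17), 0.82 for LEU4 minus LEU9 (SE 0.13), -0.62 for ILV2 minus ILV6 (SE 0.19) and -1.76 for LEU1 minus LEU4 (SE 0.17). A two-sided exact permutation test over 2 arrays against 2 cannot give a p below 0.333, which is what each pair had, also after adjustment over the 4 pairs. These pairs were chosen with earlier results of the data known.

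**Figure D3:**
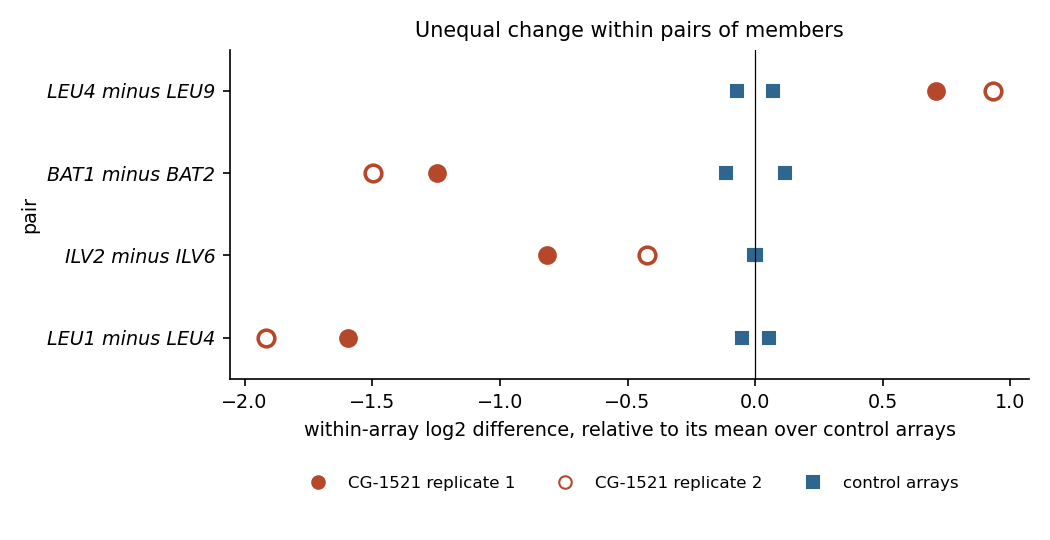
Log2 difference between 2 genes on the same array, relative to its mean over the control arrays (horizontal axis), for 4 pairs of genes. CG-1521 replicate 1 (filled circles) and replicate 2 (open circles) lie apart from the control arrays (squares) in each pair, by -1.25 and -1.50 for BAT1 minus BAT2 and by 0.71 and 0.93 for LEU4 minus LEU9.

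The CG-1521 arrays lay further apart from each other than the control arrays. For 8 of the 10 genes replicate 1 was below replicate 2, and LEU3 and ILV6 were the exceptions. Replicate 1 was the lower CG-1521 array for 6 of the 7 genes that fell, against 66.3% of all 917 genes that fell and 49.0% of all genes tested. The median gap between CG-1521 arrays was 0.28 over the 10 genes and 0.17 over all genes. Between control arrays it was 0.04 over the 10 genes and 0.11 over all genes.

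In the order of all 5449 fold changes, 0.734% of genes had a lower value than LEU9, 2.95% a lower value than BAT1 and 5.95% a lower value than OAC1. For ILV2, ILV5, LEU4 and LEU3 these shares were 8.33%, 9.82%, 13.2% and 16.5%. ILV6, at 44.6%, stood near the middle of all genes, and BAT2, at 77.1%, stood above it. With intervals this wide, neighbours in the order from OAC1 to LEU3 overlapped one another, and the interval of LEU1 did not overlap that of any other member.

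**Figure D4:**
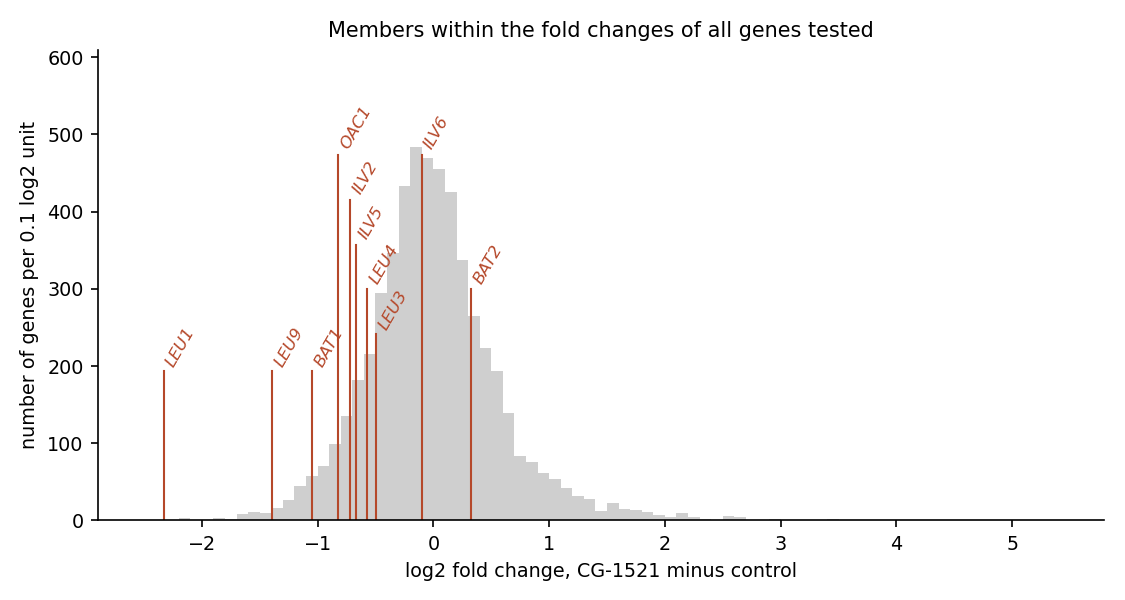
Number of genes in steps of 0.1 (vertical axis) by log2 fold change, CG-1521 minus control (horizontal axis), for all 5449 genes, with the 10 genes marked by red lines whose heights carry no value. LEU1 at -2.33 marks the lower end of the distribution, while ILV6 at -0.10 lies near its peak and BAT2 at 0.33 to the right of it.

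Genes known as targets of Leu3 were taken as a list of 8, of which 6 are among the 10 genes and LEU2 is left out. Of the 8, 5 fell (62.5%) and 0 rose, where 16.8% of all genes fell and 12.9% rose, and the median log2 fold change was -0.70. With the replicate number as a block, 2 of the 8 were called lower. All 5 that fell were among the 6 shared genes, namely LEU1, BAT1, OAC1, ILV2 and ILV5. GDH1, the ammonium-assimilating glutamate dehydrogenase, had log2 values of 11.56 and 11.72 with CG-1521, against 11.96 and 11.54 in control, so its groups overlapped (-0.11, limma adjusted p = 0.640), and without control replicate 1 its value was 0.094. BAP2, a branched-chain amino acid permease, stood at 8.98 and 9.73 with CG-1521, against 9.11 and 9.14 in control (0.23, limma adjusted p = 0.538). It was 0.60 and passed without CG-1521 replicate 1 (limma adjusted p = 0.0316), and it was -0.15 without CG-1521 replicate 2 (limma adjusted p = 0.306). Of the 4 genes outside that list, LEU9 and LEU3 fell, and ILV6 and BAT2 did not pass.

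Iron-sulfur enzymes of amino acid synthesis were represented by 5 genes, LEU1 among them. Of these, 4 fell and 0 rose, where 16.8% of all genes fell, and the median was -0.81. Beside LEU1 and ILV3 these were LYS4, the homoaconitase of lysine synthesis, at 7.80 and 7.76 with CG-1521 against 9.09 and 9.01 in control (-1.27, SE 0.10, limma adjusted p = 0.00745), and GLT1, glutamate synthase (-0.81, SE 0.13, limma adjusted p = 0.0172). MET5, a sulfite reductase subunit, averaged 8.62 ± 0.53 with CG-1521 and 9.05 ± 0.03 in control (SD, n = 2 each), and did not pass (-0.43, limma adjusted p = 0.272). Its value was -0.80 without CG-1521 replicate 1 (limma adjusted p = 0.0204) and -0.05 without CG-1521 replicate 2 (limma adjusted p = 0.736).

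Other amino acid routes under Gcn4 were sampled by a list that does not hold all of their genes. Of its 29 measured genes of histidine, arginine, tryptophan, aromatic, lysine, serine and asparagine synthesis, 4 fell and 1 rose. The other 24 did not pass, and the median was -0.03. The 5 called genes make 17.2% of the list, against 29.7% of all genes. That contrast depended on the fit. With an intensity trend, 9 of the 29 fell and 2 rose, while 1105 of all 5449 genes fell and 871 rose. The 4 that fell were ARO3, which opens aromatic synthesis (-0.91, SE 0.13), HIS1, which opens histidine synthesis (-0.82, SE 0.20), ARG8 of ornithine synthesis (-0.77, SE 0.12) and SER2 of serine synthesis (-0.55, SE 0.14), and ARG1, argininosuccinate synthase, rose by 0.50 (SE 0.11). Their limma adjusted p-values lay between 0.0144 for ARO3 and 0.0480 for SER2. Outside that list, LYS4 (-1.27) was counted among the iron-sulfur enzymes and HIS3 (-0.60) among the genes deleted in the strain. ARG2 (-0.45, limma adjusted p = 0.0396) and ARO7 (-0.50, limma adjusted p = 0.0394) of the same routes fell too. Both were named after their values were seen. The other unlisted genes of these routes were not counted, so ARG2 and ARO7 say nothing on the share that fell. GCN4 itself, a gene controlled largely at translation, had log2 values of 12.03 and 12.22 with CG-1521, against 12.33 and 12.28 in control, and did not pass (-0.18, limma adjusted p = 0.289). In the supply of threonine for isoleucine 0 of 5 genes were called, with a median of -0.24, and THR1, homoserine kinase, had the smallest p (-0.35, limma adjusted p = 0.106). With an intensity trend in the fit, 2 of the 5 were called lower, THR1 among them (limma adjusted p = 0.0400). THR1 was at -0.21 without CG-1521 replicate 1 (limma adjusted p = 0.200) and at -0.48 without CG-1521 replicate 2 (limma adjusted p = 0.0331).

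Uptake of branched-chain amino acids rests on several permeases, induced through a sensor at the plasma membrane. Among 11 permease and amino acid sensor genes, 1 rose, 1 fell and the median was -0.16. Thus 18.2% were called, against 29.7% of all genes. That contrast, too, depended on the fit. With an intensity trend, 2 of the 11 rose and 3 fell, while 871 of all 5449 genes rose and 1105 fell. GAP1, the general amino acid permease, stood at 7.96 and 8.01 with CG-1521, against 7.08 and 6.29 in control, and rose by 1.30 (SE 0.27, limma adjusted p = 0.0299). Its control arrays lay further apart than its CG-1521 arrays, and without control replicate 2 its value was 0.91 and the call ended. The call also ended without CG-1521 replicate 1 (1.33) and without CG-1521 replicate 2 (1.28). With every probeset in the fit GAP1 did not pass either (limma adjusted p = 0.0643). SSY5, the protease of the amino acid sensor, fell by 0.68 (SE 0.12, limma adjusted p = 0.0212).

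The Ehrlich pathway turns branched-chain and aromatic amino acids into fusel alcohols and their esters. Among its 15 genes, 4 rose, 3 fell and the median was 0.00395, and 12.9% of all genes rose and 16.8% fell. The pyruvate decarboxylases PDC6 (1.55, SE 0.20) and PDC5 (0.58, SE 0.12), the alcohol dehydrogenase ADH5 (0.74, SE 0.16) and the alcohol acetyltransferase ATF1 (0.47, SE 0.11) rose. ADH4 (-1.01, SE 0.17), the acetyltransferase ATF2 (-0.53, SE 0.12) and THI3 (-0.46, SE 0.12) fell. Their limma adjusted p-values lay between 0.0126 for PDC6 and 0.0484 for THI3. Over the 68 context genes outside the 10, 17 were called, or 25%, against 29.7% of all genes. All of these calls ended without control replicate 2. Without control replicate 1 all but that of GAP1 ended, and GAP1 lost its call in other settings.

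**Figure D5:**
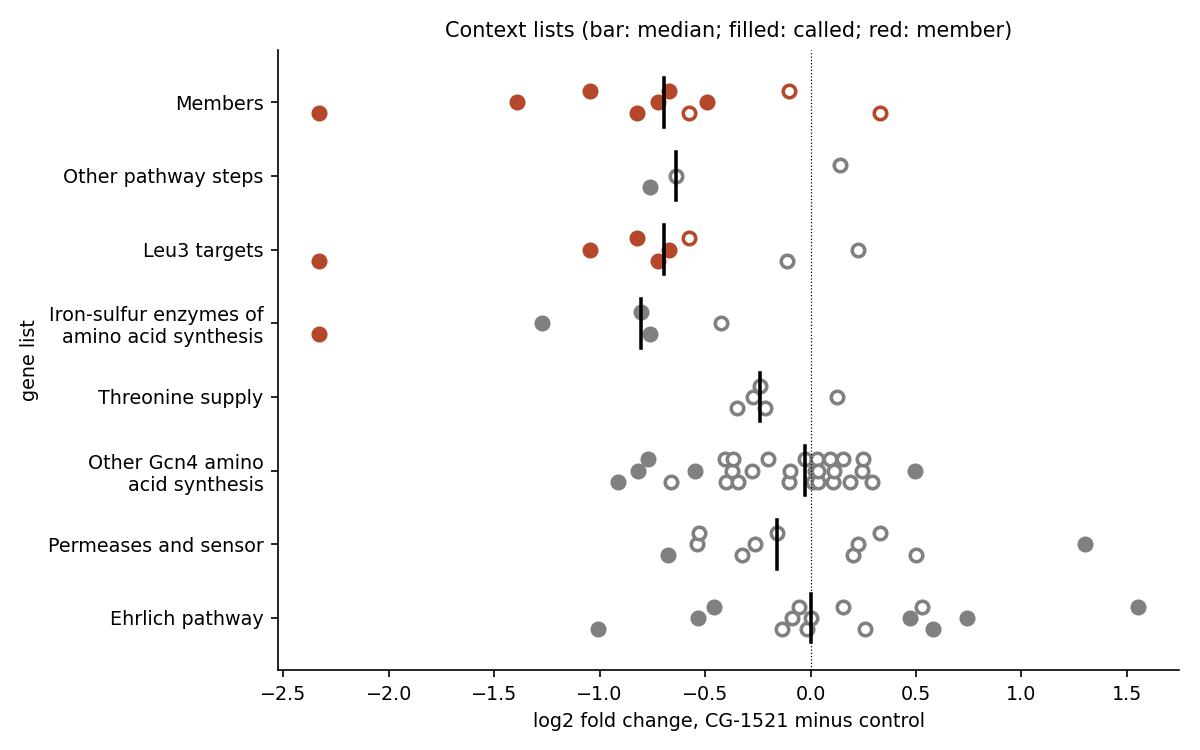
Log2 fold change, CG-1521 minus control (horizontal axis), of each gene in 8 gene lists, where filled points passed at a limma adjusted p under 0.05, red points are among the 10 genes and black bars are list medians. Medians lie at -0.70 for the 10 genes and -0.81 for the iron-sulfur enzymes, against -0.03 for the other Gcn4 amino acid genes and 0.00395 for the Ehrlich pathway.

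The pattern of LEU1 over the 4 arrays was compared with that of every other gene by Euclidean distance between log2 values after subtraction of each gene's mean. The 5 genes nearest to it outside the set were BFA1, a mitotic exit checkpoint gene (distance 0.183), MMP1, an S-methylmethionine permease (0.385), PHO5, a secreted acid phosphatase (0.448), YOR008C-A (0.552) and the sporulation gene SPO74 (0.598). Within the set LEU9 was nearest at 0.939 and BAT2 farthest at 2.66. The measure mainly reflects the size of the fall, since 4 arrays of 2 groups enter it.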

How the data were processed

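RNA of 4 cultures was hybridised to Affymetrix yeast arrays, and each culture's group and number came from its title. The authors deposited log2 values for each probeset, made with Affymetrix Expression Console and RMA per the submitters' processing notes, with versions not given in the sources used here. RMA equalises the distributions of the arrays, so these values cannot show a shift common to all transcripts. Of 10928 probesets, 5498 matched genes of the R64 annotation through the platform's gene identifiers, and the probeset with the highest 4-array mean was kept for each of 5449 genes. YBT1, which has BAT1 as an alias, was left out because BAT1 is the symbol of another gene. Background was the 95th percentile of 1746 named probesets without a match in S. cerevisiae, 2.42 to 2.45 by array. Array medians over the genes tested lay between 9.82 and 9.89.

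The groups were compared in limma 3.58.1 under R 4.3.3 by lmFit and eBayes without trend or block, with 2 residual degrees of freedom and 2.69 from the prior. Two-sided p-values were adjusted by Benjamini-Hochberg over all 5449 genes. The median SE was 0.12. The procedure was tested on simulated data. The members, lists and tests were chosen with earlier results of these data known. Genes named in the text are the 10 members, the other pathway genes, the called members of each context list or the one with the smallest p, GCN4, GDH1, strain markers, BAP2, MET5, ARG2 and ARO7 (these 4 outside the rule) and the 5 genes nearest to LEU1. Of 31 listed Gcn4 genes, 29 had a named probeset. Alternatives left out each array, added the replicate number as a block, centred arrays on their medians, added an intensity trend, fitted every probeset, dropped dim genes or took the lowest probeset. Promoter motifs and sequences were not analysed here.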

Additional observations from a re-analysis of the deposited data

Results flagged for a closer look

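LEU2, the isopropylmalate dehydrogenase gene that is deleted in the strain, was left out of the members and the Leu3 targets. It remained among the 5449 genes tested, and its probeset lay above background with CG-1521 alone. Its log2 values were 2.77 and 3.09 on the CG-1521 arrays (mean 2.93), against 2.08 and 2.42 on the control arrays, which were at or below background. Against the background level of the control arrays the CG-1521 mean was at least 1.40-fold higher, a bound that was not tested. The log2 difference between the deposited values was 0.68 (limma adjusted p = 0.0488), and that call ended in 5 of the 10 alternative settings. Of 1746 probesets without a match in S. cerevisiae, 9 (0.515%) were likewise above background on both CG-1521 arrays and below it on both control arrays. The cause was not tested.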

How the results depend on the processing

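The groups of the 10 members did not overlap, so no setting that leaves out an array could turn a sign, and only the calls bear on stability. Leaving out 1 array at a time, between 1 and 7 members were called lower and 0 higher, and over all genes 50 to 1001 were called higher and 16 to 1133 lower. Without control replicate 1 the genome-wide counts were 58 higher and 18 lower, without control replicate 2 they were 50 and 16, and LEU1 was then the single member called lower. With the replicate block, 3 members were called lower (LEU1, LEU9 and BAT1), and 369 genes were higher and 450 lower. Same-numbered arrays deviated from their group means with a correlation of -0.26 across genes, so the number was not taken as a pairing. With every probeset in the fit, 4 members were called lower (LEU1, LEU9, BAT1 and OAC1), and 334 genes were higher and 444 lower. With an intensity trend, median centring, the filter on dim genes or the lowest probeset, the same 7 members were called. Pair shifts, whose direction was likewise fixed, ranged when 1 array was left out over 0.71 to 0.93 for LEU4 minus LEU9, -1.50 to -1.25 for BAT1 minus BAT2, -0.81 to -0.43 for ILV2 minus ILV6 and -1.91 to -1.60 for LEU1 minus LEU4. GDH1, a Leu3 target outside the 10, ranged from -0.32 to 0.094 when 1 array was left out, and its sign turned without control replicate 1. BAP2, another such target, ranged from -0.15 to 0.60 and turned without CG-1521 replicate 2. LEU4, ILV1, THR1 and MET5 passed without 1 of the CG-1521 arrays and not without the other. The cause of the lost calls was not tested.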
